A study of Mus musculus with 8 samples.

Results

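Calcium enters a neuron through voltage-gated channels, is pushed out again by pumps and exchangers, is stored in the endoplasmic reticulum and mitochondria, and is held in the cytosol by binding proteins. The 42 genes described here cover these steps in the trigeminal ganglion, where the sensory neurons that serve the face have their somata. They were listed by symbol and sorted by role into entry channels, extrusion, stores and binding proteins. A single-symbol probe set was found for 37 of the 42, out of 18193 genes represented in the same way. Cacna1i, Cacnb3, Itpr1, Calm2 and Calm3 were not analysed here.

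By their labels, the samples were trigeminal ganglia of adult male C57B/6XCBA mice. Of these, 4 came from controls and 4 from daDREAM transgenic animals, each on its own Affymetrix mouse whole-genome array. DREAM, the product of Kcnip3, is itself a calcium sensor: free of calcium it binds a short DNA element and represses transcription, while daDREAM is an engineered version meant to keep repressing when calcium rises. Each transgenic sample is titled with the tag tg16, which the labels do not explain. The sources used here give neither the promoter of the transgene nor the ages of the mice, and do not say whether an array holds 1 animal or a pool. The p-values therefore reflect how these 8 samples vary. Values are log2 RMA expression values, where a difference of 1 is a doubling, and every difference is transgenic minus control.

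The arrays carried the transcripts of sensory neurons, and several also differed in transcripts of neighbouring tissue. All 13 measured sensory neuron markers read between 8.68 and 14.54, with a median difference of 0.02 between groups, and 0 passed. Nefh (0.15) and Nefm (0.10) were higher without overlap, 15.4% of the 13, where 5.00% of all genes were. None was lower without overlap. Kcnip3 itself gave 10.10 to 10.42 in controls and 10.16 to 10.31 in transgenic samples, a difference of 0.03 (limma adjusted p = 0.88), and the labels do not say whether its probe set can detect the transgene. Xist, a transcript of female cells, gave 10.20 in control replicate 3, 11.72 in control replicate 4 and 11.51 in transgenic replicate 4, against 6.10 to 6.49 on the others, although the labels give males. The Y-linked gene Eif2s3y gave 8.40 and 7.16 in control replicates 3 and 4, and 4.46 in transgenic replicate 4. On the other arrays it gave 8.74 to 9.04. The Y-linked genes Kdm5d and Uty were also lowest in transgenic replicate 4, at 3.80 and 5.08. Signal of 18S ribosomal RNA at 1 probe set was 9.80 in control replicate 1, 11.34 in control replicate 4 and 7.24 to 7.75 elsewhere. Gh, a hormone of the pituitary next to the ganglion, read 11.15 on control replicate 3, 12.50 and 13.43 on transgenic replicates 3 and 4, and 9.04 to 10.66 on the others. All 17 central nervous system markers had higher means in transgenic samples, 1 of which passed the test, and their summed linear signal ran from 6950 to 13200 in controls and from 13600 to 18600 in transgenic samples. Of 14 skeletal muscle markers 13 had lower means and 0 passed, with summed signals from 1220 to 3540 in controls and from 1150 to 1190 in transgenic samples. Of 4 measured blood markers 2 were called higher, the neutrophil genes S100a8 (1.03, limma adjusted p = 0.000382) and S100a9 (1.08, 0.0063), while the red cell genes Alas2 and Hba-a1 gave 0.37 and -0.15. The summed signal of the blood list ran from 594 to 853 in controls and from 1010 to 1140 in transgenic samples. Many calcium genes are also strongly expressed in brain, muscle or blood cells, and the part of these tissues in the differences below was not tested. In whole ganglia, fewer cells of a type and less RNA per cell cannot be told apart.

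Among the measured members, only the gene of calretinin was called in the main test. Calb2, which encodes this EF-hand calcium buffer, was 1.39-fold higher in transgenic ganglia, and it was the 1 of 37 measured members that passed (limma adjusted p under 0.05 over all genes). That is 2.70% of the members, where 0.984% of all genes were called higher. None of the members was called lower, where 1.02% of all genes were, and by the unequal-variance test per gene 0 members passed in either direction. At an unadjusted limma p under 0.05 there were 7 members with higher and 1 with lower values. These are 18.9% and 2.70% of the members, against 8.89% and 9.29% of all genes.

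**Figure D1:**
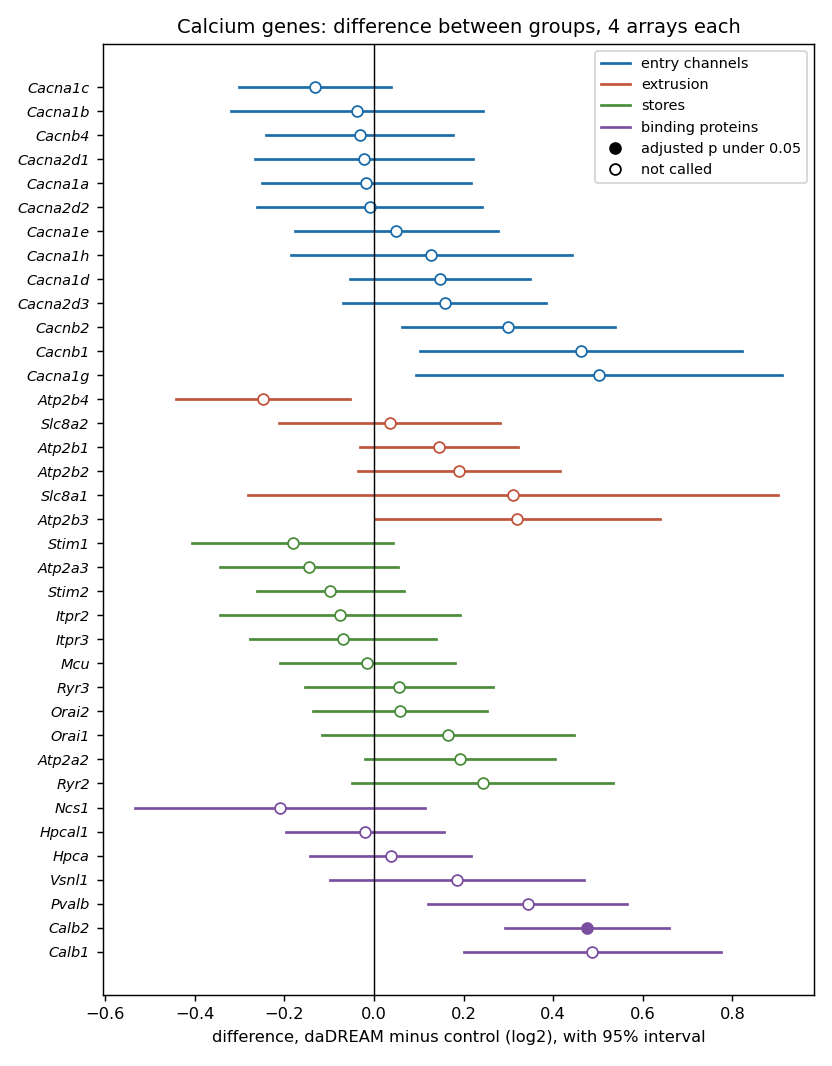
Difference between daDREAM and control ganglia on the log2 scale (horizontal axis) for each of the 37 measured calcium genes, with its 95% interval from the limma fit over 4 arrays per group, coloured by role and ordered by size within each role. The filled point is Calb2 at 0.475, the only called member; open points were not called, and most of their intervals cross 0.

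The median difference over the 37 members was 0.055, beside 0.00 over all genes. Values above 0 numbered 22 and values below 0 numbered 15. The role medians were 0.05 for 13 entry channels, 0.17 for 6 extrusion genes, -0.02 for 11 store genes and 0.19 for 7 binding proteins. These medians moved with single samples. With each sample left out in turn, they ran from -0.03 to 0.13 for entry channels, from 0.10 to 0.21 for extrusion, from -0.06 to 0.04 for stores and from 0.10 to 0.26 for binding proteins. Without control replicate 4, the entry channels stood at -0.026, extrusion at 0.102, the binding proteins at 0.098 and all members at 0.023. Without control replicates 1 and 4, the arrays with the most 18S signal and the lowest Gfap, the member median was 0.007, and without the arrays with the most Gh it was 0.158.

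DREAM recognises DNA around the core letters GTCA, so the sequences before the start sites of members were searched for that core. The 250 bases before the start site were taken from RefSeq sequences of build GRCm38.p6, on the gene's strand. Of the 37 members 29 had such a sequence, with 43 start sites. Calb2, the called member, had none and was not searched. The same holds for Calb1, Cacna1a, Cacna1g, Cacna1h, Atp2b3, Atp2a2 and Ryr3. GTCA, or TGAC where it lies on the other strand, was present before 29 of these 43 start sites (67.4%) and before 80.2% of all 32851. The core is only 4 letters long and common in windows of this length, and a match is a description and not a binding site. Sequence after the start sites was not searched, so the shares hold for these windows only. Shown are the 2 start sites of Pvalb, the gene of the buffer parvalbumin, which has the largest difference among binding proteins with a sequence, and that of Slc8a3, a sodium/calcium exchanger outside the 42 genes that has been reported as repressed by DREAM. Capitals mark the core.
Pvalb, upstream start, chr15:78206401-78206650, minus strand: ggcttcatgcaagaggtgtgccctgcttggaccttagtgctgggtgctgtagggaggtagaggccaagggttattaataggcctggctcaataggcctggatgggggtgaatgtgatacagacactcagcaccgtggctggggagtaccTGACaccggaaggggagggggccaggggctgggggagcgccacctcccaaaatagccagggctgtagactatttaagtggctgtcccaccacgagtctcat
Pvalb, downstream start, chr15:78204238-78204487, minus strand: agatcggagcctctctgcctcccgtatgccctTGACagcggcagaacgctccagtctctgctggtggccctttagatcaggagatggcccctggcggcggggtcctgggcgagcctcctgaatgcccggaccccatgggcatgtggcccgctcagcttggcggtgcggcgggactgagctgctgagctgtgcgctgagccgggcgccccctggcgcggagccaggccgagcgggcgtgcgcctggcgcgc
Slc8a3, chr12:81333181-81333430, minus strand: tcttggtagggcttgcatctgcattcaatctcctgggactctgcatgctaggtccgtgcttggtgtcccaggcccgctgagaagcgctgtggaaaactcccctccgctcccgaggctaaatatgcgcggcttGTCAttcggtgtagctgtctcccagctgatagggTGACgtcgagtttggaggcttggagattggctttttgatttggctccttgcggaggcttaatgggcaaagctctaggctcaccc
Each Pvalb window holds the core 1 time and the Slc8a3 window 2 times, once in each orientation; 50.1% of all windows hold 2 or more. Slc8a3 itself read 9.19 ± 0.15 in control and 9.21 ± 0.12 in transgenic ganglia (SD, n = 4 each), a difference of 0.025 (limma adjusted p = 0.910).

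The binding proteins held the clearest separation between the groups. Calb2 read 10.24, 10.33, 10.14 and 10.03 in controls and 10.64, 10.59, 10.79 and 10.62 in transgenic samples. Every transgenic sample lay above every control, with the highest control still 0.26 below the lowest transgenic value. The group means were 10.19 ± 0.13 and 10.66 ± 0.09 (SD, n = 4 each), a difference of 0.475 (SE 0.08, 95% interval 0.29 to 0.66, limma adjusted p = 0.0117). The array has a single probe set for Calb2, so no other probe set could check it.

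Calb2 stayed past the threshold when each of the 8 samples was left out in turn, with differences from 0.42 to 0.52 and adjusted p from 0.0141 to 0.0478. It did not pass when groups of samples were left out: 0.425 (adjusted p = 0.0765) without control replicates 1 and 4, 0.415 (0.251) without the samples with the most Gh, 0.388 (0.122) without those with Xist signal and 0.48 (0.110) without those with the most Acta1. The unequal-variance test per gene gave an adjusted p of 0.145. Over the fits with samples left out, which hold fewer arrays, the Calb2 difference ran from 0.388 to 0.523.

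Calbindin and parvalbumin, the other buffers of this kind, were also higher in every transgenic sample but did not pass. Calb1 read 10.99, 10.98, 10.67 and 10.65 in controls and 11.62, 11.23, 11.38 and 11.01 in transgenic samples. The lowest transgenic value exceeds the highest control by only 0.02. Its difference was 0.49 (SE 0.13, 95% interval 0.20 to 0.77, limma adjusted p = 0.0910), and it passed without transgenic replicate 4 (0.588, adjusted p = 0.0450). The other 3 Calb1 probe sets read 0.32, 0.24 and 0.24 higher, and none passed over probe sets. The groups overlapped at those of mean 6.94 and 6.78, and were apart only at the dimmest, of mean 5.06.

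Pvalb read 11.86, 11.63, 11.71 and 11.57 in controls and 11.98, 11.98, 12.30 and 11.88 in transgenic samples. The groups were again apart by 0.02, and the difference was 0.34 (SE 0.10, 95% interval 0.12 to 0.56, limma adjusted p = 0.120). These 3 buffers were the members whose groups did not overlap, 8.11% of the 37, where 5.00% of all genes had higher and 5.73% lower values without overlap. No member had lower values without overlap. Calb1 and Pvalb are abundant in cerebellar Purkinje cells, as is Pcp2, which read 9.97 and 9.12 on transgenic replicates 1 and 3 and 7.36 to 8.53 on all other samples. Calb1 was highest on those same 2 samples. The granule cell gene Gabra6 likewise read 9.96 and 9.14 there, against 6.23 to 8.24 elsewhere. On transgenic replicates 2 and 4 Pcp2 read 7.44 and 7.36, and Calb1 read 11.23 and 11.01, above every control. That did not hold at each Calb1 probe set. The one of mean 6.94 read 6.63 and 6.84 on these samples, and the one of mean 6.78 read 6.69 and 6.50. At neither were they above every control. On transgenic replicates 1 and 3 these probe sets read 7.81 and 7.11, and 7.52 and 6.88. The dimmest, of mean 5.06, read 5.13 and 5.04 on replicates 2 and 4, above every control. Pvalb read 11.98 on both transgenic replicates 1 and 2. Calb2 read 10.64 and 10.79 on transgenic replicates 1 and 3, and 10.59 and 10.62 on replicates 2 and 4. The part of cerebellar cells in the Calb2, Calb1 and Pvalb differences was not tested.

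**Figure D2:**
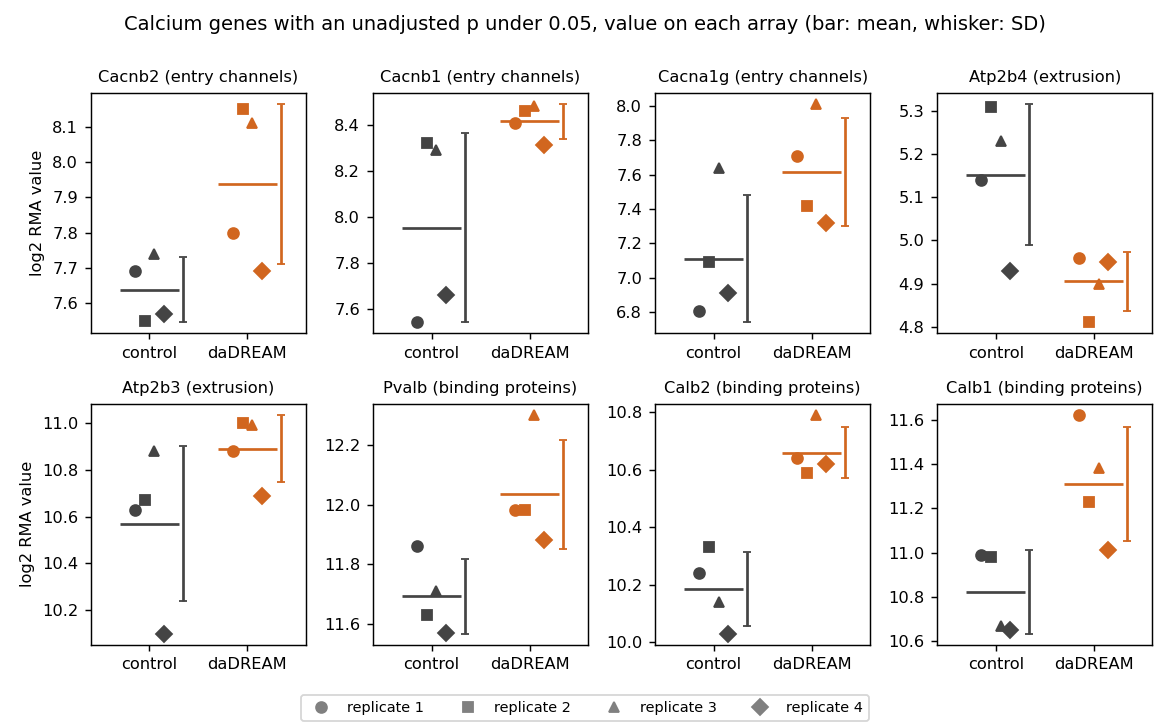
Log2 RMA value on each array (points, with a symbol per replicate number) for the 8 calcium genes with an unadjusted p under 0.05; horizontal bars are group means and whiskers SD over 4 arrays, and each panel has its own scale. The groups are apart for Calb2, and by 0.02 for Calb1 and Pvalb, and overlap in the other 5 panels.

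The neuronal calcium sensors, EF-hand proteins that respond to calcium rather than store it, gave smaller values. The sensor visinin-like 1 (Vsnl1) read 12.22, 11.95, 12.31 and 11.81 in controls and 12.12, 12.39, 12.48 and 12.04 in transgenic samples. The groups overlap, and the difference was 0.19 (95% interval -0.10 to 0.47, limma adjusted p = 0.466). Its other probe set read 0.38 higher (adjusted p = 0.173 over probe sets). Hippocalcin (Hpca) differed by 0.04 at its brighter probe set and by 0.35 at the other, where the groups did not overlap and the adjusted p was 0.147 over probe sets. Hpcal1 differed by -0.02. The frequenin homologue Ncs1 was at -0.21 (95% interval -0.53 to 0.11), and its other probe sets read -0.003 and 0.14.

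Among the entry channels 0 of 13 passed, and 3 had an unadjusted p under 0.05. Cacna1g, the pore of a low-threshold T-type channel, read 6.81, 7.09, 7.64 and 6.91 in controls and 7.71, 7.42, 8.01 and 7.32 in transgenic samples. Control replicate 3 lay inside the transgenic range, and the other 3 controls lay below it. Its difference of 0.50 was the widest of all members (SE 0.19, 95% interval 0.09 to 0.91, limma adjusted p = 0.199).

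The other T-type pore, Cacna1h, with a known role in nociceptors, differed by 0.13 (95% interval -0.19 to 0.44). The high-threshold pores were spread closely around 0. The P/Q-type Cacna1a was at -0.02, the N-type Cacna1b at -0.04, the L-type Cacna1c and Cacna1d at -0.13 and 0.15, and the R-type Cacna1e at 0.05. Their limma adjusted p ran from 0.384 to 0.950. The N-type channel drives transmitter release from nociceptor terminals, and for Cacna1b the 95% interval of the difference was -0.32 to 0.24. In Cacna1b the control values spread from 9.42 to 10.15 and the transgenic ones from 9.68 to 9.79.

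Auxiliary subunits carry the pores to the membrane and set their gating. The beta subunit Cacnb1 read 7.54, 8.32, 8.29 and 7.66 in controls and 8.41, 8.46, 8.48 and 8.31 in transgenic samples. Control replicates 1 and 4 were low and the other controls lay next to the transgenic samples. Its difference was 0.46 (SE 0.16, limma adjusted p = 0.181), and 0.11 without control replicates 1 and 4. A dimmer probe set read 0.53 higher without overlap (adjusted p = 0.103 over probe sets), and the remaining ones 0.13 and 0.15.

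Cacnb2 read 7.69, 7.55, 7.74 and 7.57 in controls and 7.80, 8.15, 8.11 and 7.69 in transgenic samples. Transgenic replicates 2 and 3 were high, while replicates 1 and 4 lay at or near the control range. The difference was 0.30 (SE 0.11, adjusted p = 0.188 with limma), and the other Cacnb2 probe set gave 0.34. The beta subunit Cacnb4 read 11.08, 11.01, 11.23 and 10.88 against 11.16, 11.03, 11.05 and 10.83, with full overlap and a difference of -0.03 (95% interval -0.24 to 0.18). Of the alpha2delta subunits, Cacna2d1 (-0.02), the binding site of gabapentin, and Cacna2d2 (-0.01) lay at 0, and Cacna2d3 read 0.16 higher (95% interval -0.07 to 0.39).

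**Figure D3:**
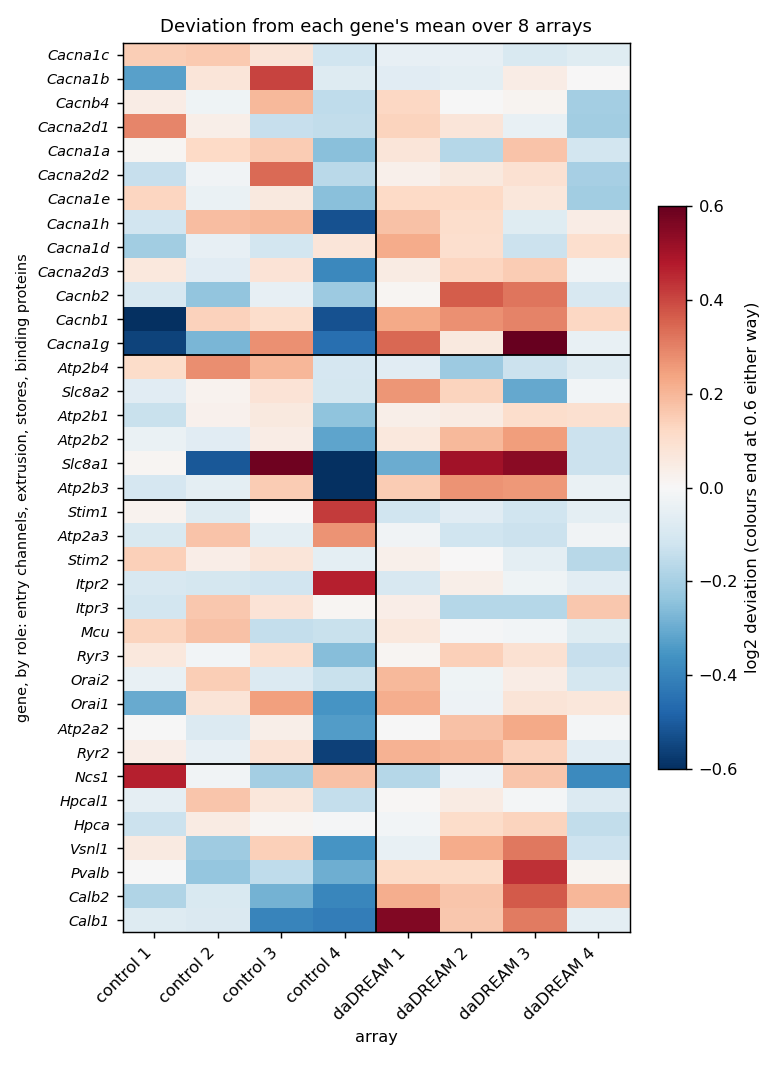
Log2 deviation of each of the 37 calcium genes (rows, grouped by role) from its own mean over the 8 arrays (columns); red is above and blue below the mean, and colours end at 0.6 either way. Control replicate 4 is blue in most rows, and it holds the lowest value of 19 of the 37 genes.

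Of the 6 extrusion genes 5 had differences above 0, and 0 were called. Plasma membrane calcium pumps clear the cytosol after activity. The neuronal pump Atp2b3 read 10.63, 10.67, 10.88 and 10.10 in controls and 10.88, 11.00, 10.99 and 10.69 in transgenic samples. Control replicate 4 stood 0.53 below the next control, and the difference was 0.32 (SE 0.15, limma adjusted p = 0.273). The other Atp2b3 probe set read -0.05.

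The pump Atp2b1 had control values of 10.61, 10.77, 10.80 and 10.50 and transgenic values of 10.78, 10.79, 10.85 and 10.84. The groups overlap slightly, and the difference was 0.15 (95% interval -0.03 to 0.32). Atp2b2, the fast pump of hair cells and Purkinje cells, differed by 0.19 (adjusted p = 0.352 with limma), and its 2 other probe sets read 0.43 (adjusted p = 0.0795 over probe sets) and 0.41. Atp2b4 was the member with an unadjusted p under 0.05 in the other direction. It read 5.14, 5.31, 5.23 and 4.93 in controls and 4.96, 4.81, 4.90 and 4.95 in transgenic samples, a difference of -0.25 (SE 0.09, adjusted p = 0.185). All 8 values lie below a log2 signal of 6, near background, where a change is compressed.

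The sodium/calcium exchanger Slc8a1 had the largest SD of all members in each group, 0.58 in controls and 0.43 in transgenic samples. Its values ran from 7.68 to 8.97 in controls and from 8.09 to 8.93 in transgenic samples, so its difference of 0.31 had a 95% interval of -0.28 to 0.90. The exchanger Slc8a2 differed by 0.04 (95% interval -0.21 to 0.28).

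Among the store genes 0 of 11 passed and none had an unadjusted p under 0.05. Atp2a2, the pump that fills the endoplasmic reticulum, read 12.32, 12.24, 12.36 and 11.99 in controls and 12.32, 12.50, 12.55 and 12.31 in transgenic samples. Control replicate 4 was low and the rest of the controls overlapped with the transgenic samples. The difference was 0.19 (95% interval -0.02 to 0.41, limma adjusted p = 0.318), and 3 further probe sets of similar or lower signal gave 0.23, 0.13 and 0.33, none of them past the test. The dimmest pair read -0.11 and 0.10. Atp2a3, the related pump of blood and endothelial cells, was at -0.15 (95% interval -0.34 to 0.05).

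Release channels gave values on both sides of 0. The ryanodine receptor Ryr2 read 8.93, 8.84, 8.98 and 8.33 in controls and 9.10, 9.09, 9.03 and 8.83 in transgenic samples, with control replicate 4 low by 0.51. Its difference was 0.24 (SE 0.13, limma adjusted p = 0.355), and that of Ryr3 was 0.06. The inositol trisphosphate receptors Itpr2 and Itpr3 were at -0.08 and -0.07.

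Store-operated entry couples the reticulum sensors STIM to the ORAI channels of the plasma membrane. Stim1 was at -0.18 (95% interval -0.41 to 0.04), with control replicate 4 at 8.71 and all other samples from 8.17 to 8.31, and Stim2 was at -0.10. Orai1 and Orai2 read 0.17 and 0.06 higher, with limma adjusted p of 0.513 and 0.763. Mcu, the pore of the mitochondrial uniporter, differed by -0.02 (95% interval -0.21 to 0.18).

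**Figure D4:**
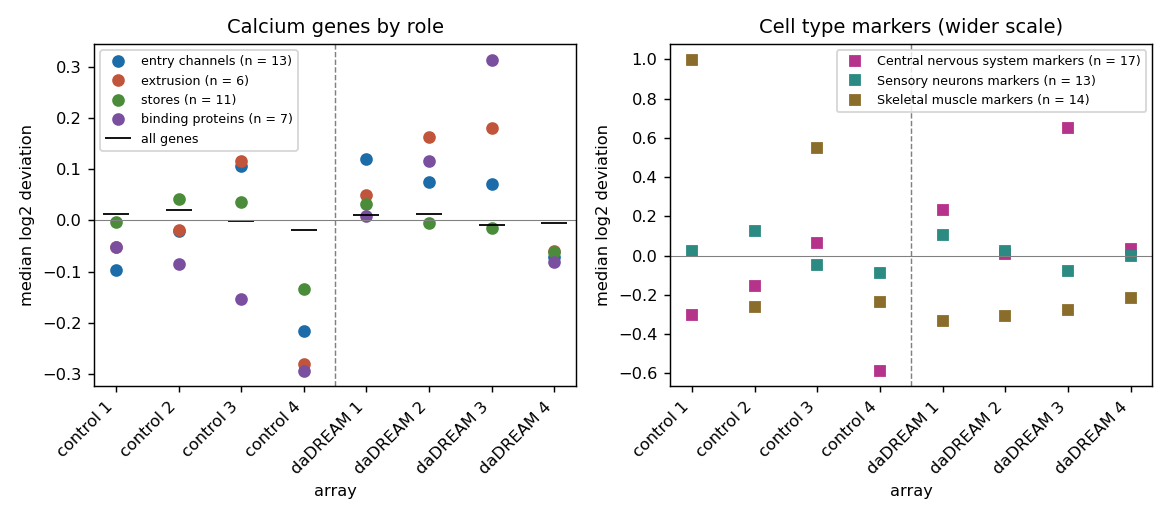
Left, median log2 deviation from each gene's own mean on every array for the calcium genes of each role, with all genes as dashes; right, the same for markers of central nervous system, sensory neurons and skeletal muscle, on a wider scale. All 4 roles are lowest on control replicate 4, where the central nervous system markers are lowest too, at -0.588.

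The members' values were also read sample by sample. Control replicate 4 held the lowest value of 19 of 37 members (51.4%), and of 27.4% of all genes. Transgenic replicate 3 held the highest value of 11 members (29.7%), against 8.64% of all genes. The median deviation of the members was -0.217 on control replicate 4, -0.044, -0.02 and 0.071 on control replicates 1 to 3, and 0.051, 0.074, 0.09 and -0.065 on the transgenic samples. Transgenic replicate 4 thus lay below control replicates 1, 2 and 3 over the members. Central nervous system markers had their lowest median deviation on control replicate 4 (-0.588) and their highest on transgenic replicate 3 (0.651), while sensory neuron markers stayed between -0.089 and 0.123. The part of these markers, or of the 18S signal of control replicate 4, in the members' values was not tested.

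The spread also differed between the groups. The SD was larger in controls for 27 of 37 members (73.0%), and for 63.8% of all genes. The median SD of a member was 0.17 in controls and 0.13 in transgenic samples. The median width of the members' 95% intervals was 0.45 on the log2 scale, beside 0.39 over all genes.

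Probe sets of the same gene did not always read the same direction. The 30 members with more than 1 probe set had 57 others, of which 38 shared the sign of the probe set that represents the gene and 19 did not. Over all probe sets, 2.74% of 45037 passed the limma test, and of the 94 for the members 1 passed, that of Calb2. In 14 of the 30 genes all probe sets shared the sign, among them Calb1, Cacnb1, Cacnb2, Atp2b2, Hpca and Vsnl1. In the other 16 at least 1 probe set turned, among them Cacna1d (-0.16 at the other probe set), Cacna1h (-0.18), Atp2b1, Atp2b3, Atp2a2 and Ncs1.

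**Figure D5:**
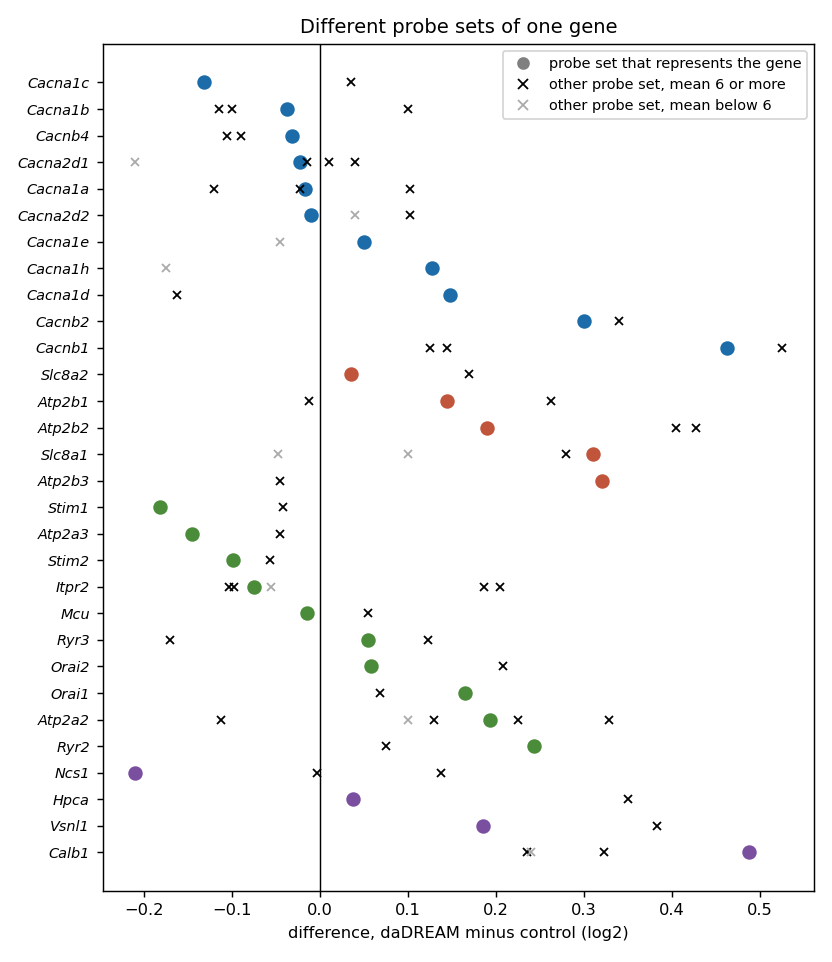
Difference between groups on the log2 scale for the probe set that represents each of the 30 calcium genes with more than 1 (coloured circles, by role) and for the 57 other probe sets (crosses, grey where the mean signal is below 6). Crosses and circles lie on the same side of 0 in 38 cases, and no cross passed the test over probe sets.

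Calcium genes beyond the 42 were counted from a second list of further channel subunits, exchangers, store proteins, sensors and calcineurin genes. Of 80 listed, 76 were measured. Of these 1 passed as higher and 0 as lower (1.32% and 0%), where 0.984% and 1.02% of all genes did. The median difference was 0.00. The gene that passed was Saraf, a reticulum protein that turns store-operated entry off. It read 11.54, 11.62, 11.48 and 11.21 in controls and 11.87, 12.06, 11.98 and 12.00 in transgenic samples, without overlap. The difference was 0.515 (SE 0.09, 1.43-fold, limma adjusted p = 0.0139). It did not pass without transgenic replicate 2 (0.488, adjusted p = 0.0613) or 3 (0.514, 0.0503), nor without control replicates 1 and 4 together (0.427, 0.0543), without the samples with the most Gh (0.508, 0.244), without those with Xist signal (0.39, 0.113) or without those with the most Acta1 (0.562, 0.0912). The unequal-variance test gave it an adjusted p of 0.219.

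At an unadjusted p under 0.05, the wider list held 7 genes with higher and 9 with lower values (9.21% and 11.8%), close to the shares over all genes. S100a1, an EF-hand protein, was closest behind Saraf at 0.33 (limma adjusted p = 0.0536). The other higher ones were Cabp1 (0.69), Sln (0.505), Slc24a2 (0.265), Necab3 (0.23) and Letm1 (0.165), and of these only Letm1 was without overlap. Sln had a mean of 5.91 in controls, and its other probe set read -0.07. The lower ones were the reticulum store proteins Hrc (-0.31), Casq2 (-0.27) and Casq1 (-0.51) and their anchor Trdn (-0.26), the muscle pump Atp2a1 (-0.65), and Cacng1, Cacna2d4, Mcur1 and Atp2c2 at -0.23 to -0.19. The lower ones had adjusted p from 0.0733 to 0.254, and of these Hrc, Casq2, Trdn and Mcur1 were without overlap. Over the whole wider list, 3.95% were higher and 6.58% lower without overlap, against 5.00% and 5.73% of all genes. Of the lower ones named here, Trdn, Cacng1 and Atp2c2 had both group means below 6, near background. Mcur1 went the other way at its dimmer probe set, 0.475 higher (limma adjusted p = 0.0213 over probe sets). Other genes of the muscle reticulum were near 0, with Ryr1 at -0.04, Jph2 at -0.04 and Pln at -0.03, and Sln, an inhibitor of the muscle pump, is among the higher ones; these genes are named after their values were seen. Atp2a1 gave 8.90 in control replicate 1 and 8.31 in control replicate 3, the samples with the most Acta1 (9.20 and 9.40), while the other 6 lay between 7.10 and 7.51.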

How the data were processed

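Per the submitters' processing notes, the authors computed the deposited log2 values with RMA from the affy package. RMA brings the probe intensities of all arrays onto one distribution before summarising them. A shift shared by most genes is thus largely removed, and differences are relative to the average gene. The deposited values still had array medians of 7.09 to 7.13. The sources used here name no versions and no genome build. Values ran from 3.39 to 14.94, and no arrays were identical. Affymetrix controls (64 of 45101 probe sets) were left out, and each gene was read at the probe set, among those with a single symbol, of highest mean, which gave 18193 genes.

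Differences were fitted across all genes in R 4.3.3 with limma 3.58.1 (eBayes after lmFit, two-sided tests, only group in the model) and Benjamini-Hochberg adjustment over genes, called at an adjusted p under 0.05. The other probe sets of a gene came from a fit over 45037 probe sets. The fit was tested on simulated data. Intervals are 95% moderated intervals of the difference. The number of arrays limits the precision. Members, lists, rule for named genes and alternatives were chosen with earlier results of these data known. Sample values are given for members with an unadjusted p under 0.05 and, in each role, for the one with the highest signal and the one with the largest difference; of the wider list, for genes that passed. Other members are given by their differences. Samples sharing a replicate number were not treated as pairs in the main test, since number 2 showed no such relation. The correlation of their deviations was 0.21, 0.0063, 0.33 and 0.36 for numbers 1 to 4. Control replicates 1, 3 and 4 did correlate best with the transgenic sample of their own number, and control replicate 2 with transgenic replicate 1. Alternatives covered normalization, probe set choice, a floor of 6, variance prior, array weights, the replicate block, thresholds, an unequal-variance test and left-out samples. Promoter sequences are those of RefSeq (GRCm38.p6).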

Additional observations from a re-analysis of the deposited data

How the results depend on the processing

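Of 37 members, 19 kept the sign of their difference under each of the 17 alternatives that can move a difference, and 18 turned it in at least 1. Among the members given sample by sample, Cacnb4 turned: its -0.03 became 0.105 without the samples with the most Gh, 0.035 without those with Xist signal and 0.072 without those with the most Acta1, and ran from -0.089 to 0.03 with each sample left out. The count of members called higher, 1 in the main test, ran from 1 to 2 with each sample left out and was 2 at an adjusted p under 0.10. It was 0 at 0.01, 0 with the unequal-variance test and 0 in each of the 4 fits without groups of samples (most 18S, most Gh, Xist, most Acta1); those fits also hold fewer samples. With the replicate block it was 3, Calb2 joined by Calb1 (adjusted p = 0.0214) and Cacna1g (0.0288). The count of members called lower was 0 under every setting run. All genes called, 364 in the main test, numbered 672 with the replicate block, 697 with the most variable probe set, 703 at 0.10, 181 at 0.01 and 49 with the unequal-variance test. They ran from 229 to 349 with each sample left out. They came to 227 without the samples with the most 18S, 98 without the most Gh, 213 without Xist signal and 171 without the most Acta1. The member median of 0.055 moved to 0.158 without the samples with the most Gh. It was 0.016 after renewed quantile normalization, which shifted the median of all genes by -0.01.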
